A study of Drosophila melanogaster with 2 samples.

Results

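The 5 genes described here, bigmax, Mondo, Max, Mnt and Myc, encode the fly proteins of the Max network and its Mondo branch. They were taken by name from the 13945 protein-coding genes on the main chromosome arms, and all 5 names matched a gene. For each gene, every peak summit inside the gene body or within 5 kb of it was collected. The data came from chromatin immunoprecipitation followed by sequencing of whole Drosophila melanogaster embryos of mixed sex, aged 0 to 24 h, from a stable line in which GFP was fused to the C terminus of Bigmax. Both samples carried this line and formed 1 group, numbered by the labels as biological replicates 3 and 4, and no other condition was measured. Chromatin was sonicated to 200 to 800 bp. The antibody labels and titles describe the libraries as Bigmax immunoprecipitations, but the free text of both calls them input controls. The deposited files are peak lists, and they were used as such.

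The proteins share a basic helix-loop-helix leucine zipper, which holds pairs of them together on E-boxes, short sites with the core CACGTG. Max is the common partner. Myc with Max activates growth genes, and Mnt with Max represses them. Bigmax, the counterpart of mammalian Mlx, pairs instead with Mondo, the counterpart of ChREBP and MondoA, and this pair is known for switching on genes of sugar and lipid metabolism after feeding. The peaks therefore show where the tagged partner of Mondo was enriched at the genes of its own network. Whole embryos were used, so the share of cells with a bound site and the strength of binding per cell cannot be told apart.

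The deposited lists held 30000 relaxed peaks for each replicate, 30000 for both replicates pooled, and 1949 pooled peaks past the authors' irreproducible discovery rate threshold, called reproducible peaks below. Signal is the authors' value per peak in the units of their peak caller. The weakest reproducible peak had a signal of 111, and the next pooled peak below it also rounded to 111. Each list has its own signal scale, so levels were set across lists by rank only, with rank 1 the strongest. The lists hold no read counts, and sequencing depth is unknown. Positions are 1-based on dm6.

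Mondo carried the strongest enrichment of the 5 genes, Mnt and Max carried weaker reproducible peaks, and bigmax and Myc carried none. A reproducible summit lay within 500 bp of a transcript start, here called a promoter summit, at 2 of the 5 genes, Mondo and Max, where 11.2% of all protein-coding genes had one. With the whole gene and 5 kb on both sides, 3 of the 5 had one, Mondo, Max and Mnt, where 30.1% of all genes did. Long genes hold more sequence to search. Of genes of 15 kb or longer, which include Mondo, Mnt and Myc, 39.4% had such a summit, and 2 of these 3 genes did. In the relaxed pooled list all 5 genes had a promoter summit, as did 56.7% of all genes, and all 5 had a summit in the gene or within 5 kb, as did 87.9% of all genes. A promoter summit was present in both replicate lists at 4 of the 5 genes, as at 45.4% of all genes; Myc had a promoter summit in neither. No test was made on these counts, because 5 named genes are no sample of genes.

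The sequences at the summits that the results turn on are shown first, on the reference strand of the Release 6 assembly, which is dm6. They differ in whether they hold AGGTTA or its reverse complement, a sequence already known from earlier work on these peaks to be common at strong Bigmax-GFP sites, or the E-box CACGTG. Capitals mark a match. Inside untranslated regions 30 bases are shown; elsewhere the window reaches 50 bp to each side of the summit, or to the edge of an untranslated region. The line for the upstream Mondo start is centred on its match and does not reach the summit.
Mondo, internal start, chr2L:21309504-21309533: gcgaaacgcacaTAACCTgtgcgccgcaca
Mondo, upstream start, chr2L:21309985-21310014: tatagcacacatTAACCTattgcgggtagc
Mondo, at the crc start, chr2L:21310926-21310955: cggcatttatatTAACCTaaagatggctct
Mondo, in the crc intron, chr2L:21311099-21311192: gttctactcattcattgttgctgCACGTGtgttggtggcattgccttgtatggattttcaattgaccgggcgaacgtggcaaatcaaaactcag
Mnt, intron, chrX:3672634-3672734: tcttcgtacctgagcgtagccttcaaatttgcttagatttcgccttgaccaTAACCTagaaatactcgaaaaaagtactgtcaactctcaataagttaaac
Max, promoter shared with Mettl5, chr3L:19264340-19264369: tcgcacatttggttcagttcgaataccgct
bigmax, summit inside the gene, chr3R:27288294-27288394: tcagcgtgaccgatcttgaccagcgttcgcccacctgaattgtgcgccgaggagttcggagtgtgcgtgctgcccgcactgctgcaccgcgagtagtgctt
bigmax, summit upstream of the start, chr3R:27288536-27288636: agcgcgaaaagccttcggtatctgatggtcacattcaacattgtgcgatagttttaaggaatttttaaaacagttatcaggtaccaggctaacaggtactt

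Mondo encodes the glucose-sensing partner of Bigmax. The gene (FBgn0032940) lies on the minus strand of 2L at 21286078 to 21310050 and has 11 annotated transcripts from 3 starts. Its strongest peak, 2L 21309277 to 21309699, had a pooled signal of 815 and rank 104. Replicate 3 gave a signal of 508 and rank 101 there, and replicate 4 gave 305 and rank 127. The replicate summits lay 5 bp apart, closer than the median gap of 24 bp over all reproducible peaks. The summit was 17 bp upstream of the start at 21309489, which only 1 of the 11 transcripts uses, and it fell in the 5' UTR of transcripts from the upstream start. Among all genes ordered by their strongest pooled promoter summit, Mondo stood at place 89 of the 7907 that had one. The genes next to it in that order were dpr19 above, with a signal of 822, and Hsp60A, which encodes a mitochondrial chaperonin, below, with 805.

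The start at 21310050, used by 9 of the 11 transcripts, had its own reproducible peak, 2L 21309877 to 21310146, with a summit 7 bp inside the gene. Its pooled signal was 156 and its rank 1050. The replicates placed it differently, with a signal of 85.9 and rank 1169 in replicate 3 and a signal of 29.6 and rank 6739 in replicate 4. Its summit positions nevertheless lay 3 bp apart. The third start, at 21304109, had a pooled summit 41 bp inside the transcript with a signal of 50.8 and rank 8240, far below the reproducible peaks.

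Another reproducible peak in the Mondo window, 2L 21310868 to 21310982, belonged by distance to the neighbouring gene. Its summit was 70 bp from the start of crc, which encodes the fly counterpart of the stress-response factor ATF4 and is transcribed away from Mondo. It was 886 bp upstream of the nearest Mondo start. The pooled signal was 197 at rank 706, with 148 and rank 462 in replicate 3 and 67.6 and rank 1281 in replicate 4. A weaker pooled summit 283 bp from the crc start, with a signal of 78.4 and rank 3861, was the one summit among the 52 pooled summits at the 5 genes with CACGTG within 50 bp. The starts of Mondo and crc lay 816 bp apart, and the crc peak cannot be given to either gene by position alone. The remaining pooled summits in the Mondo window had signals of 37.3 to 63.2. They lay in introns of Mondo or crc, at CG46314, and at Gr39a, a taste receptor gene nested inside Mondo.

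**Figure D1:**
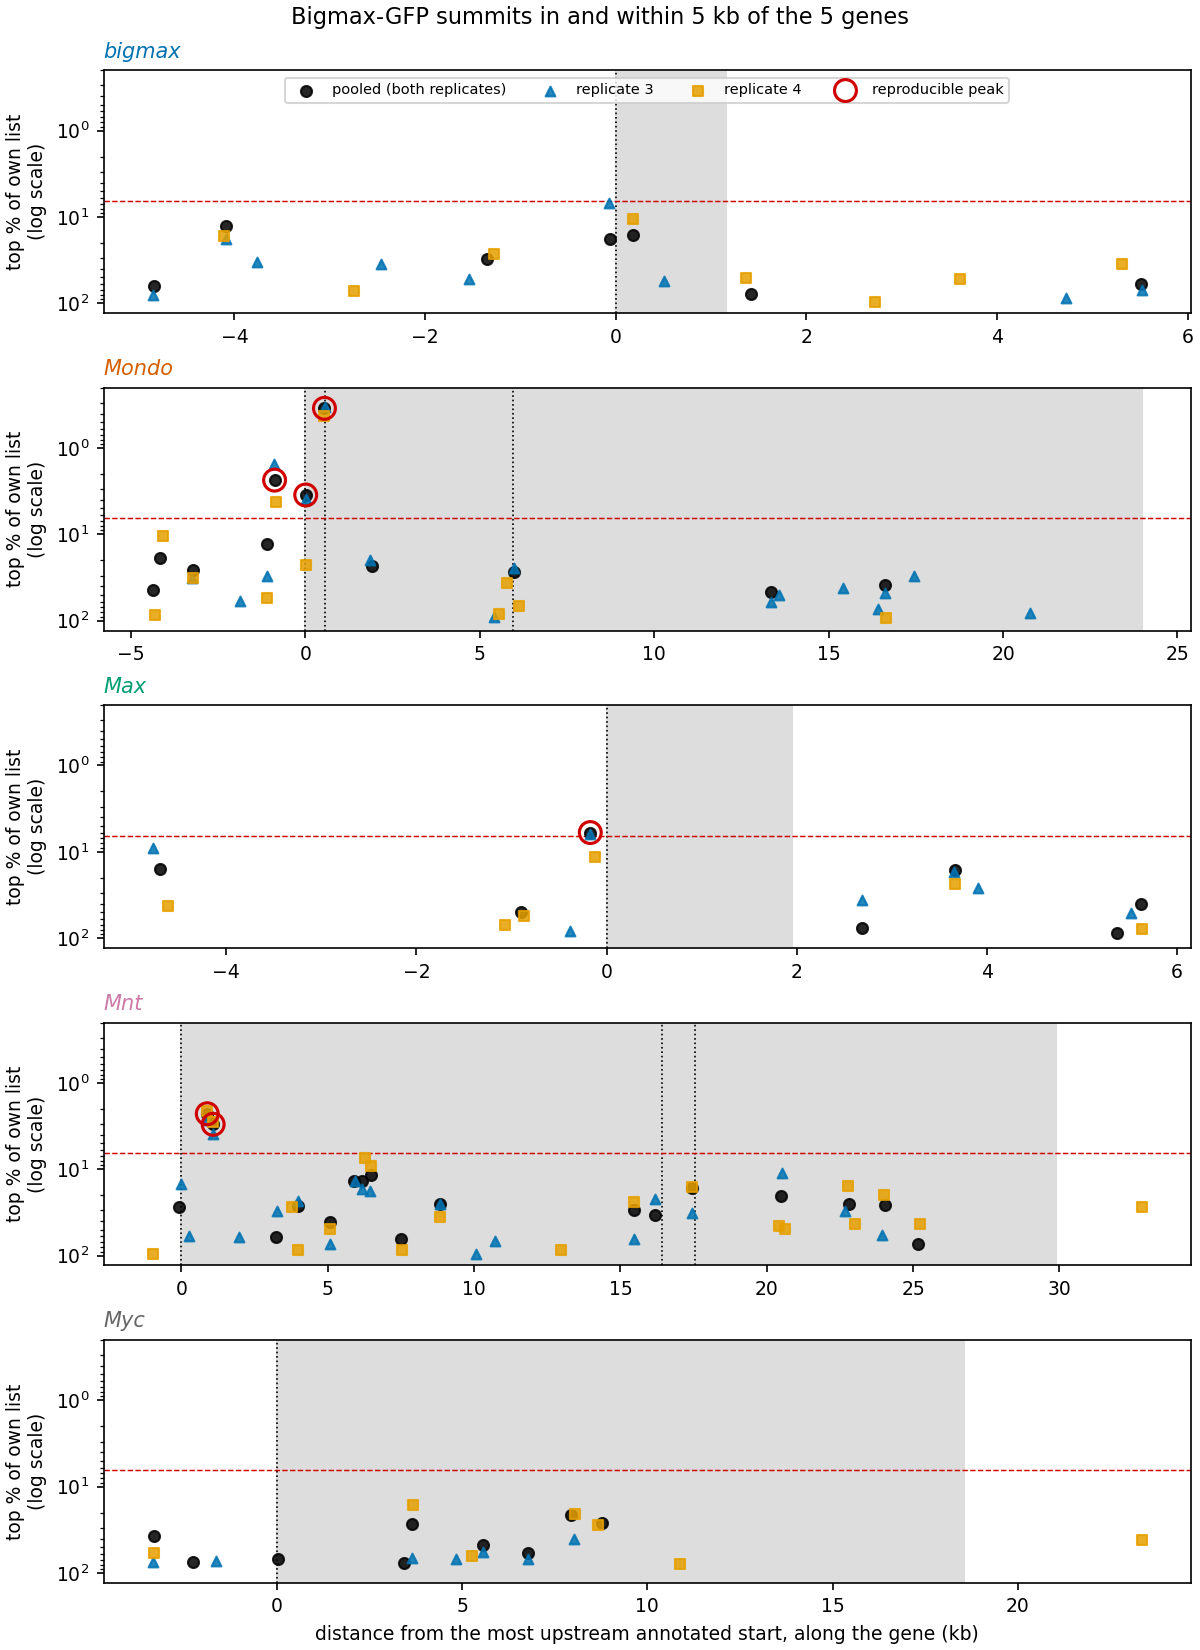
Each panel is 1 gene, with distance from its most upstream annotated start in kb along the gene, and the position of each summit in its own list as the top percent of that list on a log axis with the strongest at the top. Black circles are the authors' pooled summits, triangles replicate 3 and squares replicate 4; red rings are reproducible peaks, grey shading the gene body, dotted lines annotated starts, and the dashed line the last reproducible rank. Mondo, Max and Mnt have rings above the dashed line, and bigmax and Myc have none.

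Max encodes the partner that Myc and Mnt share. The gene (FBgn0017578) lies on the minus strand of 3L at 19262232 to 19264184, with 3 transcripts from 1 start. Its reproducible peak, 3L 19264155 to 19264554, was among the weakest of that list, with a pooled signal of 116 and rank 1796 of 1949. In replicate 3 the signal was 66.7 at rank 1853, and in replicate 4 it was 41.8 at rank 3424. Replicate 3 alone would thus place it within 1949 peaks, and replicate 4 alone would not. The summit lay 171 bp upstream of the Max start and 49 bp from the nearest start of Mettl5 and CG42374, transcribed in the opposite direction. That start was 220 bp away from that of Max. Both genes also reach further upstream, to 19263766, inside Max. Mettl5 encodes a methyltransferase of ribosomal RNA. The summit was in the 5' UTR of these 2 genes, and position does not say which of the 3 promoters the enrichment belongs to. Max itself held no pooled summit inside its body. The other 6 pooled summits of its window lay at or near nes, Bet1, Mettl5, CG42374 and Aldh7A1, with signals of 26.0 to 69.1. In pooled promoter order Max stood at place 1448, between conv, with a signal of 115.6, and eIF5B, which encodes a translation initiation factor, with 115.5.

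Mnt encodes the repressor that competes with Myc for Max. The gene (FBgn0023215) lies on the plus strand of X at 3671801 to 3701672, with 10 transcripts from 3 starts. It carried 2 reproducible summits, 202 bp apart, with overlapping peak intervals, X 3672608 to 3672784 and X 3672686 to 3673085. The first had a pooled signal of 200.4 and rank 683, with 106 and rank 805 in replicate 3 and 99.3 and rank 635 in replicate 4. The second had a pooled signal of 170.1 and rank 906, with 85.8 and rank 1171 in replicate 3 and 84.7 and rank 844 in replicate 4. Both replicates placed both summits within their strongest 1949 peaks, and the replicate summits lay 2 and 7 bp apart. The first summit was 883 bp and the second 1085 bp downstream of the most upstream start, within the intron of the 1 transcript that begins there. The other 9 transcripts begin far downstream.

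At its starts Mnt had weaker signals. The pooled summit 86 bp upstream of the first start had a signal of 50.9 and rank 8206. Its interval was matched in replicate 3 but not in replicate 4, and the position also lies within 500 bp of the start of Parg, which encodes an enzyme that removes poly(ADP-ribose). The strongest of its pooled promoter summits was 125 bp upstream of the third start, at 3689363, with a signal of 68.4 and rank 4922. It had rank 9581 in replicate 3 and rank 4819 in replicate 4. In replicate 3 the strongest promoter summit was instead 21 bp upstream of the first start, with a signal of 42.6 and rank 4468. The genes beside Mnt in pooled promoter order were ImpL2, which encodes a secreted insulin-binding protein, and Nup153, which encodes a nuclear pore protein, with signals of 68.4 and 68.3. Of the 18 pooled summits in its window, 17 lay in introns and 1 just outside the gene. A cluster of 3 summits with signals of 75.9, 76.2 and 83.0 stood 5892 to 6471 bp into the gene, at ranks 3478 to 4085.

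bigmax encodes the tagged protein. Where the tagged copy lies in the genome is not given in the sources used here. The gene (FBgn0039509) is the shortest of the 5, at 3R 27287366 to 27288526 on the minus strand, with 1 transcript. Its start is 243 bp from that of Hmu, which encodes the mucin hemomucin, on the other strand. The pooled list had 2 promoter summits there, 242 bp apart. One was 182 bp inside the gene, in the coding exon, with a signal of 69.2 and rank 4804, and the other was 60 bp upstream of the start, with a signal of 65.2 and rank 5359. Each replicate marked a different one of them. Replicate 3 had its summit 71 bp upstream of the start, with a signal of 63.1 and rank 2085. Replicate 4 had its summit 181 bp inside the gene, with a signal of 43.5 and rank 3168. The strongest promoter summits of the replicates thus lay 252 bp apart. At reproducible peaks the median gap was 24 bp and the upper quartile 49 bp, but the bigmax summits were below that threshold. Gaps over all relaxed peaks were not computed, so this value does not set bigmax apart. In each replicate taken alone the promoter ranked higher than either summit did in the pooled list. Among genes in pooled promoter order bigmax stood at place 3427, next to scat and wun2, both with signals of 69.2.

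The strongest pooled summit of the bigmax window was not at bigmax but 403 bp from the start of CG3348, with a signal of 79.1 and rank 3790. It ranked 5463 in replicate 3 and 4980 in replicate 4. The other 4 pooled summits had signals of 27.7 to 47.8 and lay near mrt, CG3368, Hmu and CG3348. The lowest of these was 254 bp beyond the end of bigmax, within CG3368, which overlaps that end.

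Myc encodes the growth-promoting activator of the network. The gene (FBgn0262656) lies on the plus strand of X at 3373159 to 3391697, with 2 transcripts from 1 start. Its promoter summit, 34 bp inside the gene, had a pooled signal of 30.1 and rank 20618, and neither replicate list had a summit within 500 bp of the start. Hmx and wor stood next to it in pooled promoter order, each with a signal of 30.1. The strongest of its 9 pooled summits was intronic, 7936 bp from the start, with a signal of 58.9 and rank 6421. It had rank 12139 in replicate 3 and rank 6207 in replicate 4. An intronic summit 3655 bp from the start had a pooled signal of 51.3 and rank 8094, and the replicates differed more there, with rank 19973 in replicate 3 and rank 4944 in replicate 4. No summit at Myc reached the strongest 1949 peaks of either replicate. CG12535, which overlaps the 3' part of Myc on the other strand, had no start in the window.

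**Figure D2:**
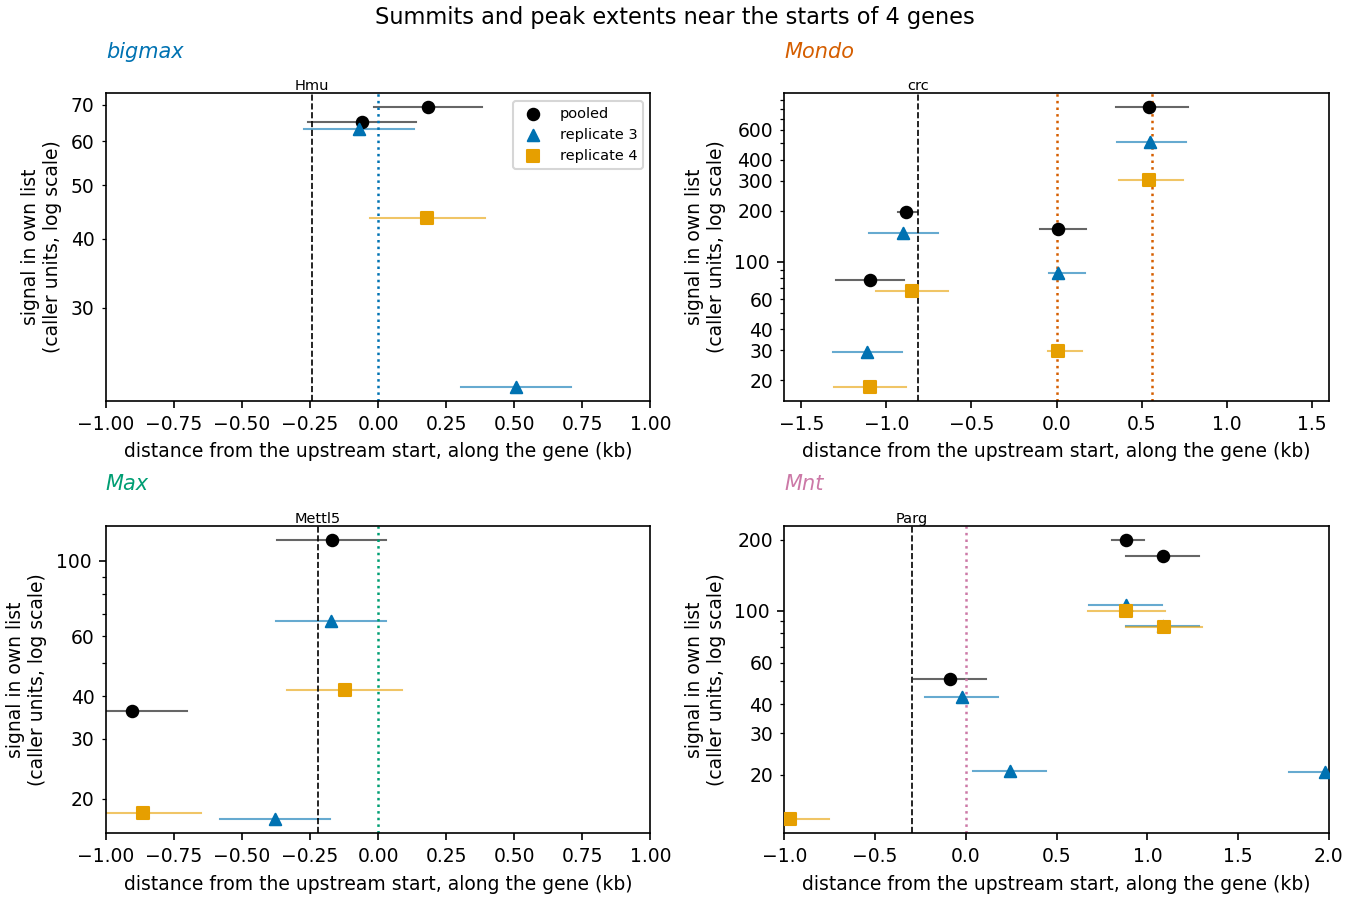
Summits (symbols) and peak extents (horizontal lines) are plotted against distance in kb from the most upstream start of bigmax, Mondo, Max and Mnt, with signal in the units of each list on a log axis. Coloured dotted lines are the starts of the named gene and black dashed lines the nearest start of a neighbouring gene. At bigmax the replicate 3 and replicate 4 summits stand on opposite sides of the start, 252 bp apart; at Mondo they stand 5 bp apart at the internal start.

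Ordered by the strongest summit anywhere in the window, the genes ran Mondo at rank 104, Mnt at 683, Max at 1796, bigmax at 3790 and Myc at 6421 in the pooled list. The gap between Mondo and Mnt held in both replicates. The bigmax summit at rank 3790, near CG3348, ranked 5463 and 4980 in replicates 3 and 4. The Max summit ranked higher in both, at 1853 and 3424. By promoter summits alone, Max and bigmax were not separated by more than the replicates differed. The strongest bigmax promoter summit ranked 2085 in replicate 3 and 3168 in replicate 4, at 2 different positions. Among the strongest 1949 summits of each replicate, replicate 3 had 6 in these windows, at Mondo, Mnt and Max, and replicate 4 had 4, at Mondo and Mnt.

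**Figure D3:**
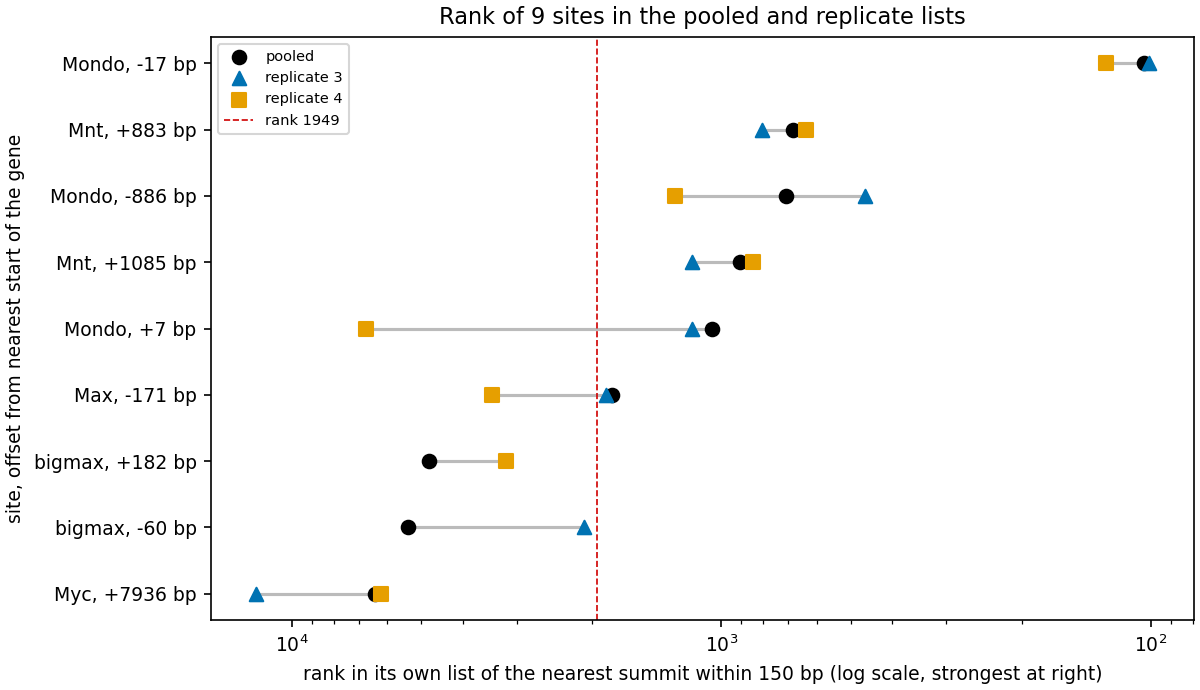
Rank on a log axis, strongest at the right, of the 6 reproducible summits, both bigmax promoter summits and the strongest Myc summit, named by their offset in bp from the nearest start of the gene. Circles are the pooled list, triangles replicate 3 and squares replicate 4, drawn where the replicate had a summit within 150 bp; the dashed line is rank 1949. The Mondo site at -17 bp lies between ranks 101 and 127 in every list, and the Mondo site at +7 bp spans ranks 1050 to 6739.

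Pooled summits, the reproducible ones included, were denser in all 5 windows than over the arms as a whole. The pooled list held 6.27 summits per 10 kb in the bigmax window, 5.86 at Max, 4.51 at Mnt, 3.24 at Mondo and 3.15 at Myc, against 2.24 over all 6 arms. That average includes sequence far from any gene. Density in the windows of other genes was not computed, so these values do not set the 5 genes apart. The median signal of the 52 pooled summits was 51.4, against 35.9 for the whole pooled list. No median was computed for the windows of other genes, so this value does not set the 5 genes apart either. A partner with 50% reciprocal overlap was present in replicate 3 for 39 of the 52, in replicate 4 for 35 and in both for 27. The share of the whole pooled list with such partners was not computed, so these counts do not set the 5 genes apart. By gene, both replicates had a partner for 3 of 7 summits at bigmax, 6 of 11 at Mondo, 4 of 7 at Max, 11 of 18 at Mnt and 3 of 9 at Myc. The rule cannot match a pooled interval less than 50% as wide as the replicate interval. By this rule 4 of the 6 reproducible peaks had partners in both replicates. The stronger Mnt peak and the peak at the crc start had none, though replicate summits lay 1 and 1 bp and 15 and 34 bp from theirs. Of the 52, 34 had a start of the gene itself as the nearest protein-coding start: all 18 at Mnt and all 9 at Myc, but 4 at Mondo, 3 at bigmax and 0 at Max. No such count was made for other genes.

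The reproducible peaks of the network genes held no exact CACGTG, the E-box core that Bigmax dimers are known to bind. Other spellings of the E-box were not searched. CACGTG was searched within 50 bp of each summit; it is its own reverse complement, so 1 search covers both strands. It was found at 0 of the 6 reproducible summits, where 2.72% of all reproducible summits and 1.82% of all protein-coding transcript starts had it. At that frequency 0 of 6 does not set these sites apart. Widening the window also gave 0 of 6, where 5.70% of all reproducible summits had the sequence within 100 bp and 9.59% within the whole peak. Among the pooled summits 1 of 52 had it, where 1.57% of all pooled summits did. The sequence was present in the windows of all 5 genes. The bigmax window held 5 copies (4.48 per 10 kb), the Mnt window 12 (3.01 per 10 kb), the Mondo window 9 (2.65 per 10 kb), the Myc window 4 (1.40 per 10 kb) and the Max window 1 (0.837 per 10 kb), against 1.23 per 10 kb over all 6 arms. Such densities were not computed for the windows of other genes, so they do not set the 5 genes apart. None of the copies in the bigmax window lay in bigmax itself. They were in coding exons of CG3368 or beyond the start of CG3348. Measured from the middle of the site, the Max copy lay in its intron 595 bp from the nearest pooled summit. Mnt has a copy in its intron 429 bp from the first reproducible summit, and all 12 of its copies were more than 50 bp from a pooled summit.

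AGGTTA, searched on both strands, lay within 50 bp of 4 of the 6 reproducible summits, where 19.8% of all reproducible summits and 1.84% of transcript starts had it. These were all 3 summits in the Mondo window and the stronger Mnt summit. The sequence was chosen because earlier work on these same peaks found it at strong sites. The count therefore describes the summits and is no independent support. The near edge of the match was 10 bp from the summit at the internal Mondo start, 41 bp from it at the upstream start, 2 bp from it at the crc start and 1 bp from it in the Mnt intron. In the lines above all 4 matches read TAACCT on the reference strand. That is AGGTTA in the direction of Mondo transcription at both Mondo starts, and TAACCT in the direction of transcription of crc and Mnt. The Max summit and the weaker Mnt summit had neither sequence within 50 bp, and neither did the bigmax summits. Among all 52 pooled summits 5 had it, where 4.53% of the pooled list did. The one beyond these 4 was 2261 bp upstream of Myc, with a signal of 28.8, and neither replicate list had a partner for it. A match describes the letters in a window and no binding was measured at it.

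Genes known to work with this network were set beside the members as lists of 4 kinds. Other genes listed as E-box binding, all for basic helix-loop-helix proteins, had a reproducible promoter summit at 2 of 6, where 11.2% of all genes had one. They were SREBP, the regulator of lipid synthesis, with a pooled signal of 117 that it shared in position with Gyc76C and CG42637, and crp, with 115.1. The circadian gene cyc had a weaker promoter summit with a signal of 59.2, and Usf one at rank 12370, while Clk and Mitf had none in the pooled list. Cofactors and regulators of Myc had one at 2 of 9, beside the same 11.2%. In the pooled list 7 of these 9 had a promoter summit, where 56.7% of all genes did. The strongest was ago, the ubiquitin ligase subunit that marks Myc for degradation, with a signal of 542 and rank 182. Next was lid, annotated as Kdm5, a histone demethylase that binds Myc, with 134. Below the threshold were pont, a chromatin helicase, with 108 and rank 2065, and Tip60, an acetyltransferase, with 97.6; both lie within 500 bp of a second gene start at these summits, Sirt6 and tyf.

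Of the 2 corepressors of Mnt, Sin3A had a promoter summit with a signal of 388 and rank 277, while HDAC1 had one of 27.6 at rank 23941. Known targets of Mondo and Bigmax had a reproducible promoter summit at 1 of 9, close to the 11.2% of all genes. It was cbt, a sugar-induced transcription factor gene, with 168 and rank 925. All 9 had a pooled promoter summit, where 56.7% of all genes did, and all 9 had a promoter summit in both replicates, where 45.4% of all genes did. ACC, the rate-limiting enzyme of fatty acid synthesis, had 99.98 at rank 2435 in a promoter shared with Nup44A, Men, which makes NADPH for lipid synthesis, had 88.3, and Zw, the first enzyme of the pentose phosphate pathway, had 80.3. The signal at Mondo itself, 815, was above that of every gene in these 4 lists.

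**Figure D4:**
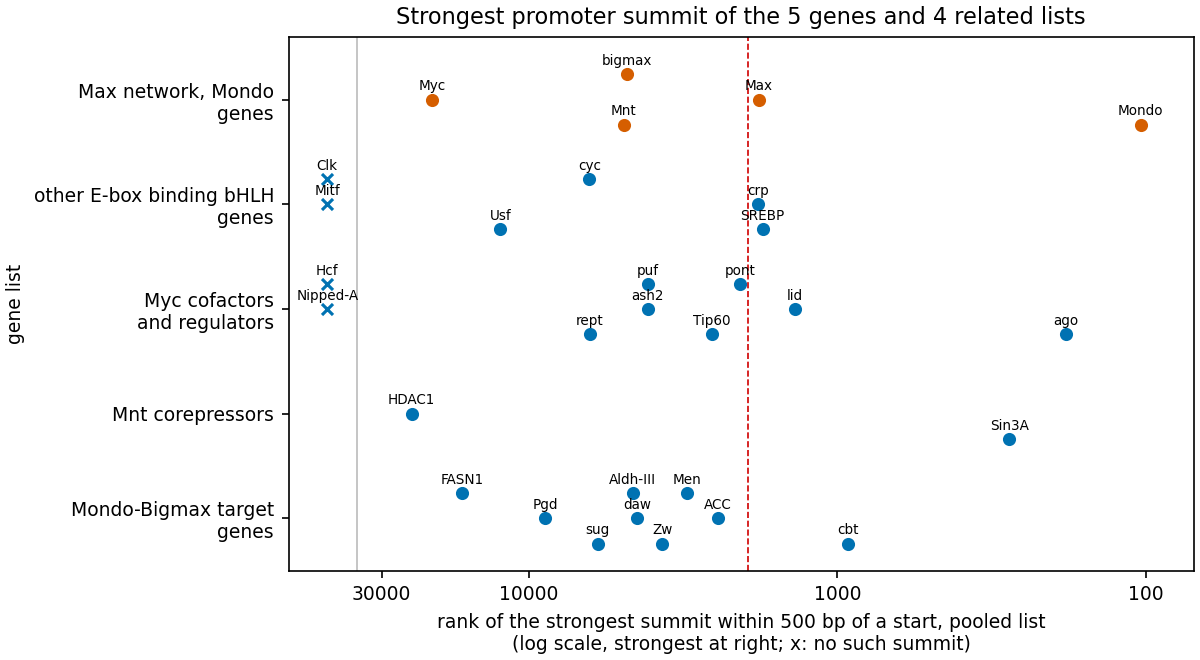
Rank in the pooled list, on a log axis with the strongest at the right, of the strongest summit within 500 bp of a start, for the 5 network genes (orange) and the genes of 4 related lists (blue). Crosses at the far left are genes with no such summit, and the dashed line is rank 1949. Mondo, at rank 104, stands to the right of all listed genes, followed by ago at 182 and Sin3A at 277.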

How the data were processed

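The 4 deposited lists give each peak a signal and a −log10 q-value. As the deposited notes record, the authors aligned to dm6, called relaxed peaks for replicate 3, replicate 4 and both pooled against 1 control alignment, and thresholded the pooled calls by irreproducible discovery rate. No source used here names the peak caller or its settings. The 1949 reproducible peaks are the pooled peaks with the highest signal, and the deposited −log10 q-value was 3.64 for all of them, so ranks use signal. No read counts are given and depth is unknown.

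Gene models were Ensembl release 115 on 6 arms (X, 4, 2L, 2R, 3L and 3R), and sequence was RefSeq's copy of Release 6; 0 peaks passed the end of an arm. Positions were assigned with Python 3.11.15 and pandas 2.3.3, and the assignment was tested on planted positions. A promoter summit lay within 500 bp of any transcript start, and motifs were searched within 50 bp. The genes and the 4 lists, with 26 names, all matched, were chosen with earlier results of these data known. Named genes were the members, the nearest-start genes and neighbours within 5 kb, the genes next in pooled promoter rank, and up to 4 per list by signal, with genes sharing those promoters; Clk and Mitf, which have no promoter summit, were added to complete their list. In the pooled list, the summit farthest from a gene inside the 5 kb limit was 4843 bp from bigmax with a signal of 31.7, and the first outside was 5028 bp from Myc with 29.3. The alternatives tried were other windows, a stricter list, each replicate alone, whole peaks in place of summits and RefSeq starts, the last chosen after seeing the data. The planned comparison of protein sequences was not run.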

Additional observations from a re-analysis of the deposited data

How the results depend on the processing

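Of 37 recomputed counts, 32 stayed within 1.5 times the reported count. Among them were all counts of genes with a pooled promoter summit or with one in both replicates, and both motif counts. At counts this small that limit passes many changes of 1 gene. The pooled promoter count was 4 in place of 5 with either replicate alone, and with the stronger 15000 pooled peaks. The count in both replicates was 3 in place of 4 by 50% reciprocal overlap. The count with 5 kb flanks was 2 in place of 3 with the stronger reproducible peaks and without replicate 3. With the stronger 974 reproducible peaks, 1 gene, Mondo, had a reproducible promoter summit, where the full list gave 2. With the 1949 strongest peaks of a replicate in place of the pooled list, the count was 1 to 2: Max was lost without replicate 3. In the same setting the count over other E-box binding genes was 1 to 1, crp without replicate 4 and SREBP without replicate 3, against 2 reported, and that over Mondo and Bigmax targets was 1 to 2, with ACC joining cbt without replicate 4. The count over Myc cofactors stayed at 2, but without replicate 3 pont took the place of lid. The cause was not tested. With 10 kb flanks bigmax gained a reproducible peak, with a signal of 210.1 at rank 639 and 6086 bp beyond the gene. That summit lay in an intron of mrt, 250 bp from an mrt start and 7246 bp from the bigmax start. With a 1000 bp promoter window Mnt gained its intronic peak. Of 13 recomputed positions of the strongest promoter summit, as top percent of the list, 6 moved by more than the replicates' spread. The spread was the standard deviation of the 2 replicate values, so the settings with 1 replicate are not independent of it. The position of bigmax was 6.95 without replicate 4 and 10.6 without replicate 3, against 16.0. For Max it was 11.4 without replicate 3, against 5.99, and for Mondo 0.423 without replicate 3, against 0.347. For Mnt it was 14.9 without replicate 4 and 2.28 at 1000 bp, against 16.4. In both of these settings the strongest Mnt summit was at another site than in the pooled list. RefSeq starts, added after seeing the data, were the same as Ensembl's for all 5 genes. No paired analysis was possible because the samples form 1 group. Unknown depth limits every statement on an absent summit: it says only that the list, which stops at 30000 peaks, holds none.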

Other observations

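The Mnt intron holds 2 copies of CACGTG close together, at X 3696912 to 3696917 and X 3696927 to 3696932. The nearest pooled summit lay 56 bp from the second copy and had a signal of 28.9 and rank 22186. It had a partner in replicate 4 only. Upstream of bigmax, beyond the start of CG3348, 3 copies lay at 3R 27292494, 27293197 and 27293306. The first of them was inside the interval of the strongest pooled peak of the bigmax window, 116 bp from its summit. In the crc gene next to Mondo, copies lay at 2L 21311122, in an intron, and 2L 21311278, in the 5' UTR, 25 bp and 131 bp from the nearest pooled summit. Distances are from the middle of each copy. These copies were picked out after their positions were seen.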
